A study of Mus musculus with 5 samples.

Results

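The ERK feedback and output genes described here are 10 genes that growth factor signalling through the kinase ERK is known to switch on: the phosphatase genes Dusp4, Dusp5 and Dusp6, the Sprouty genes Spry1, Spry2 and Spry4, the Spred genes Spred1 and Spred2, and the ETS factor genes Etv4 and Etv5. They were chosen by name and function, as were the lists of other pathway genes below, with earlier results of these data known, and all 10 were found among the 12934 genes of the count table. RNA was taken from EpH4 cells, a mouse mammary epithelial line that expressed Cas9 in both groups and carried either a control sgRNA (sgControl, 3 libraries) or an sgRNA against Mef2d (sgMef2d, 2 libraries). The RNA sequencing was designed to find gene expression programs that depend on the transcription factor MEF2D, and was only a part of the study. Phosphorylated ERK was among the proteins the study measured. Cas9 and the sgRNAs were delivered by lentivirus, and the cells were selected with blasticidin and puromycin as stable clones, whose number is not given. The study used 2 different sgRNAs against Mef2d, and the labels do not say which of them a library carries. The labels also do not say whether libraries came from separate cultures, so the p-values below measure only the spread between these libraries.

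ERK is the last kinase of a cascade that runs from receptors at the membrane through RAS, RAF and MEK. Its activity induces genes within the hour, and part of them act back on the cascade. The DUSP proteins remove phosphate from ERK or related kinases, Sprouty and Spred proteins act upstream at the level of receptors, RAS and RAF, and the ETS factors carry the signal on to further genes. In the mammary epithelium, signalling of this kind from FGF and EGF receptors is known for its part in growth and branching of the ducts.

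Library totals over the listed genes lay between 13601145 and 20498563 counts. sgControl replicate 1 stood apart from the other sgControl libraries, with a chi-square per degree of freedom of 10.6 and 13.7 against replicates 2 and 3, where counting error alone gives about 1, and 2.01 between replicates 2 and 3. Between libraries of different groups it ran from 10.96 to 13.15, so that this library differed from the other sgControl libraries about as much as the groups did from each other. Without it, 29.4% of all genes tested passed the threshold used below, as against 7.95% with it. Below, libraries are given in the order of their replicate numbers in CPM, counts scaled for library size by the TMM method. Log2 ratios, or log2 fold changes, are sgMef2d over sgControl, and each edgeR adjusted p comes from its quasi-likelihood test with Benjamini-Hochberg adjustment over all genes tested. Mef2d transcripts held 64.2, 76.9 and 71.4 CPM in the control and 64.2 and 65.8 CPM in the sgMef2d libraries, so that the groups overlapped (log2 ratio -0.12, edgeR adjusted p 0.40). Without sgControl replicate 1 these were -0.19 and 0.00550. The RNA level of a gene cut by Cas9 need not fall, and these counts therefore do not check the labels. Of 9 epithelial markers, 8 were listed, Krt19 being the exception, and they summed to between 4111 and 4316 CPM in sgControl and between 3917 and 4084 CPM in sgMef2d, with 1 higher and 1 lower past the threshold. Of 8 fibroblast markers, 6 were listed, and they summed to between 643 and 767 CPM in sgControl and between 608 and 649 CPM in sgMef2d, with 2 higher and 1 lower past the threshold. Of the 12 endothelial, immune and adipocyte markers, 2 were listed, and the defining genes Pecam1, Ptprc and Adipoq were not among them. The immune gene Cd68 lay between 0.660 and 0.829 CPM in sgControl and between 0.883 and 1.28 CPM in sgMef2d. The adipocyte gene Fabp4, between 2.42 and 3.80 CPM in sgControl and between 1.18 and 1.48 CPM in sgMef2d, was lower past the threshold. In bulk RNA, fewer cells of a type and less RNA per cell cannot be told apart, and the part of these markers in the results below was not tested.

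The RefSeq promoter table of GRCm38.p6 held 8 start regions for 7 of the 10 genes, each from 250 bases before to 50 bases after a start. They were searched on both strands for words known from factors of the ERK response, and 4 of them are shown. Capitals mark CArG boxes, which are bound by SRF, and the octamers of CIC, a repressor that ERK relieves, here the words TGAATGAA, TGAATGAG, TGAATGGA, TGAATGGG, TCAATGAA, TCAATGAG, TCAATGGA and TCAATGGG or their reverse complements. Spry1 is shown because its RNA fell, Etv5 because its RNA fell and this start region holds octamers, and Dusp6 and Dusp5 as genes of the same pathway whose regions hold such words.
Spry1 (chr3:37639697-37639996, plus strand): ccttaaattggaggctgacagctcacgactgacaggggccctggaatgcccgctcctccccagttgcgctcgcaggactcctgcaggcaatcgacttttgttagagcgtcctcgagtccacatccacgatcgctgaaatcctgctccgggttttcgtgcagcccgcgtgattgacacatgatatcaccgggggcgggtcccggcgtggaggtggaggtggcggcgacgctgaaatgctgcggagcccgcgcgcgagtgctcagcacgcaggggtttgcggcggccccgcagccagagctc
Etv5 (chr16:22438319-22438618, minus strand): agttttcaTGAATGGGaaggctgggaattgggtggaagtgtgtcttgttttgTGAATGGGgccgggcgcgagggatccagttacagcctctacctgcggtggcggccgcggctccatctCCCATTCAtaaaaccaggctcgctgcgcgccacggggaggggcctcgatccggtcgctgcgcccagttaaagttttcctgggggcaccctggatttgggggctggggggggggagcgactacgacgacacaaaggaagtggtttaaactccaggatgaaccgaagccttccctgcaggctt
Dusp6 (chr10:99262981-99263280, plus strand): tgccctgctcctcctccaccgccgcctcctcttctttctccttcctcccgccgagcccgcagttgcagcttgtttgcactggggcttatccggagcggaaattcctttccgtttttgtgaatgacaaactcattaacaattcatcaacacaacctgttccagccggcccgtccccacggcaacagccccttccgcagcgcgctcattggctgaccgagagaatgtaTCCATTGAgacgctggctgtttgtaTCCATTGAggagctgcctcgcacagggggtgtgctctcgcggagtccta
Dusp5 (chr19:53528895-53529194, plus strand): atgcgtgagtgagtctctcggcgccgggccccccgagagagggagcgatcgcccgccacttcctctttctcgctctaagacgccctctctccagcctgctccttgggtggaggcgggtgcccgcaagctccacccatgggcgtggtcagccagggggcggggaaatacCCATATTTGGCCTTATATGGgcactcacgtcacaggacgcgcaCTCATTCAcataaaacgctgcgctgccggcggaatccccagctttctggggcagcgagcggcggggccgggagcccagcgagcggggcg

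CIC octamers of this set occurred in 4 of the 8 start regions, those of Dusp5, Dusp6, Spry2 and Etv5, while 7.02% of all 32851 start regions in the table held one. The set of 8 words was chosen after the regions had been seen. For the pair of words chosen earlier, TCAATGAA occurred in the Spry2 region alone, as in 0.749% of all regions, and TGAATGAA in none, as against 1.3%. Dusp6 held the same octamer at 24 bases before its start and again just past the start, and the Etv5 region held 3 octamers, at 242, 198 and 131 bases before the start. The CArG box occurred in 1 of the 8 regions, that of Dusp5, in adjoining copies that begin 82 and 72 bases before the start, and in 1.63% of all regions. The ETS words CCGGAAGT and CAGGAAGT, the AP-1 word TGACTCA, the CRE word TGACGTCA and the MEF2 box occurred in 0 of the 8 regions, as against 3.89%, 3.33%, 5.2%, 1.79% and 3.19% of all regions. A match describes the letters of such a window and not the binding of a factor, and the other start region of Etv5 and that of Spry1 held none of the words.

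Levels of different genes were compared as TPM, the counts per kilobase of exon scaled to the same total over the listed genes in every library. In sgControl, the order of the means ran from Etv4 (48.9 ± 1.14 TPM, SD, n = 3) over Spry1 (43.1 ± 3.08), Spred1 (42.5 ± 3.83), Spred2 (41.9 ± 6.78), Dusp5 (36.6 ± 2.32), Dusp6 (24.2 ± 1.87), Dusp4 (21.3 ± 2.75), Etv5 (16.4 ± 2.04) and Spry2 (15 ± 0.078) to Spry4 (0.322 ± 0.189). The ranges over the 3 libraries overlapped between neighbours from Spry1 to Dusp5 and from Dusp6 to Spry2, so those neighbours were not separated by more than their spread. Etv4 lay above Spry1, Dusp5 above Dusp6, and Spry2 above Spry4, without overlap. The median of all listed genes was 21.4 TPM, and 6 of the 10 genes were at or above it. In sgMef2d, Spry1 stood in position 5, at 27.6 ± 1.90 TPM (SD, n = 2), and Etv5 in position 9, at 11.6 ± 0.474 TPM. Spred2, at 42.6 ± 1.48 TPM, stood above Spred1, at 39.3 ± 1.61 TPM, where the order in sgControl was the other way round.

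**Figure D1:**
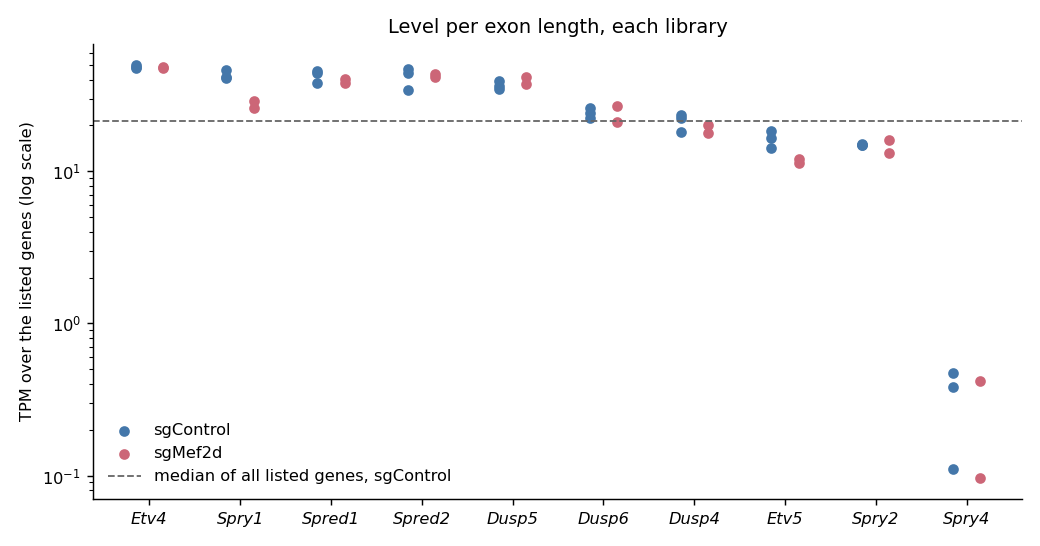
Level of each gene per exon length (TPM over the listed genes, log axis) in the 3 sgControl and 2 sgMef2d libraries, ordered by the sgControl mean, with the median of all listed genes in sgControl as a dashed line. Etv4 is highest at 48.9 TPM in sgControl, Spry4 lies at 0.322 TPM, and Spry1 and Etv5 are the genes whose sgMef2d points sit apart below the sgControl points.

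Between the groups, Spry1 and Etv5 fell in sgMef2d, and the other 7 genes tested did not pass the threshold of an adjusted p of 0.05 in either direction. Thus 2 of 9 genes passed, both lower, where 7.95% of all 12483 genes tested passed, 4.28% lower and 3.67% higher. The count was 1 under DESeq2 (6.13% of all genes), without sgControl replicate 2 (4.84%) or 3 (6.51%) and without sgMef2d replicate 1 (1.88%), and 0 without sgMef2d replicate 2, where 1.83% of all genes passed. At an unadjusted p below 0.05 there were again 2 of 9, as against 23.2% of all genes. The median log2 ratio of the 9 genes was 0.014, as against 0.0031 over all genes tested. The groups of libraries did not overlap in 2 of the 9 genes, as against 41.1% of all genes tested. Spry4 had too few counts for the test.

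**Figure D2:**
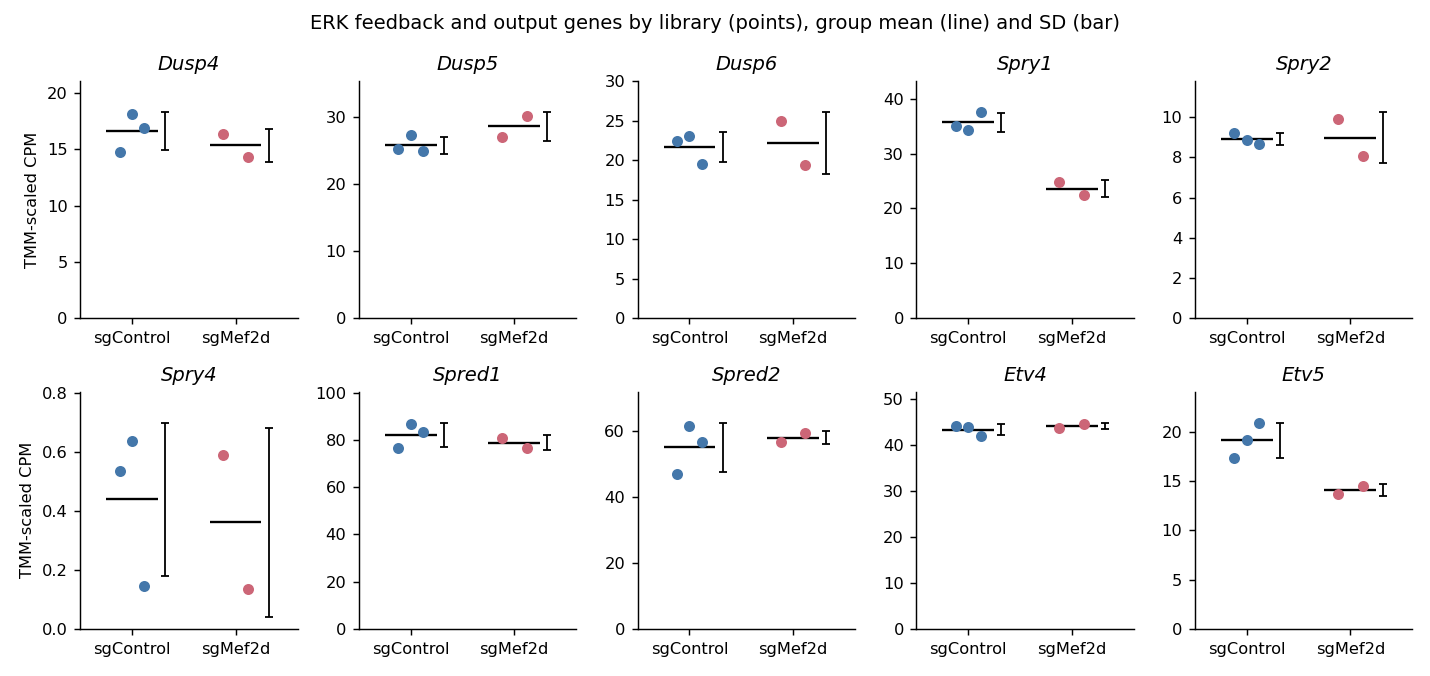
Each of the 10 genes by library in TMM-scaled CPM, with points for the 3 sgControl and 2 sgMef2d libraries, a line at the group mean and a bar of 1 SD. The sgMef2d points of Spry1 (22.5 and 24.8 CPM) and of Etv5 (13.7 and 14.5 CPM) sit below every sgControl point, and the groups overlap in the other 8 panels.

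Among the Sprouty genes, Spry1, whose product restrains receptor tyrosine kinase signalling and is itself induced by it, held 35.0, 34.4 and 37.6 CPM in the control and 24.8 and 22.5 CPM in the sgMef2d libraries. Both sgMef2d libraries lay well below all sgControl libraries, and the sgMef2d mean was 66.2% of the sgControl mean. The mean was 35.7 ± 1.69 CPM in sgControl (SD, n = 3) and 23.6 ± 1.61 CPM in sgMef2d (SD, n = 2). The log2 ratio was thus -0.59 (95% interval -0.78 to -0.40, edgeR adjusted p 0.00160). This call held in 13 of the 14 alternatives and was lost without sgMef2d replicate 2, with an adjusted p of 0.0537 and a log2 ratio of -0.53. The gene (ENSMUSG00000037211.12) lies on chromosome 3 of GRCm38, from 37639947 to 37644598 on the plus strand, and its exons overlap those of Gm42922 on the minus strand. Gm42922 is not among the genes of the count table. The kit marked strand, but whether the counting used it is not given in the sources used here.

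Spry2, a close relative of Spry1 with a like role, had a lower level and no such difference. It held 9.21, 8.86 and 8.65 CPM in the control and 9.88 and 8.08 CPM in the sgMef2d libraries. The sgMef2d libraries lay on either side of the sgControl libraries, with a log2 ratio of 0.014 (95% interval -0.28 to 0.31, edgeR adjusted p 0.965). The ratio of Spry1 to Spry2 counts, which no scaling of libraries can alter, was 3.80, 3.88 and 4.35 in the sgControl libraries and 2.51 and 2.78 in the sgMef2d libraries. These ratios did not overlap between the groups. The pair was chosen with the values known, so the ratios are a description and restate that Spry1 fell and Spry2 did not pass.

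Spry4, the third Sprouty gene, was barely detected. Its reads numbered 11, 9 and 2 in the control and 10 and 2 in the sgMef2d libraries. In each group, 1 library thus had fewer than the 3 counts that a count of 0 allows, which cover counting error only, and no difference was detectable at this depth.

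The Spred genes encode proteins related to the Sprouty family that hold RAS and RAF in check, partly by bringing the RAS inhibitor NF1 to the membrane. Spred1 held 76.6, 86.7 and 83.2 CPM in the control and 81.0 and 76.5 CPM in the sgMef2d libraries. The groups overlapped, and the log2 ratio came to -0.059 (95% interval -0.21 to 0.096, edgeR adjusted p 0.669). Spred2 held 46.9, 61.7 and 56.7 CPM in the control and 56.6 and 59.5 CPM in the sgMef2d libraries. Its widest gap was within sgControl, where replicate 1 lay lowest, and the log2 ratio came to 0.081 (95% interval -0.14 to 0.30, edgeR adjusted p 0.686). Without sgControl replicate 1 the log2 ratio of Spred2 was -0.031. In each library these 2 genes had the highest counts of the 10, between 774 and 1572.

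The phosphatase genes showed small differences that did not exceed the spread between libraries. Dusp6, which encodes a cytoplasmic phosphatase specific for ERK, held 22.4, 23.1 and 19.5 CPM in the control and 24.9 and 19.4 CPM in the sgMef2d libraries. The sgMef2d libraries were the highest and the lowest of all 5, and the log2 ratio came to 0.034 (95% interval -0.23 to 0.30, edgeR adjusted p 0.901). Its direction turned with the libraries used, from -0.17 without sgMef2d replicate 1 to 0.20 without sgMef2d replicate 2. Dusp5, a nuclear phosphatase of ERK, held 25.3, 27.3 and 25 CPM in the control and 27.1 and 30.2 CPM in the sgMef2d libraries. The higher sgMef2d library exceeded every sgControl library while the other did not, with a log2 ratio of 0.15 (95% interval -0.044 to 0.34, edgeR adjusted p 0.347), which was 0.067 without sgMef2d replicate 2. The exons of Dusp5 overlap those of AC137853.2 on the opposite strand, which reached at most 0.879 CPM. Dusp4, a nuclear phosphatase of ERK and other MAP kinases, held 14.8, 18.1 and 16.9 CPM in the control and 16.4 and 14.3 CPM in the sgMef2d libraries. The groups overlapped, and the log2 ratio came to -0.10 (95% interval -0.36 to 0.16, edgeR adjusted p 0.663). With 1 library left out, it ran from -0.21 without sgMef2d replicate 1 to -0.018 without sgMef2d replicate 2.

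The ETS factor genes Etv4 and Etv5 encode closely related activators of the PEA3 group that work downstream of FGF receptors. Etv5 held 17.3, 19.1 and 20.9 CPM in the control and 13.7 and 14.5 CPM in the sgMef2d libraries. Both sgMef2d libraries lay below all sgControl libraries, and the sgMef2d mean was 73.6% of the sgControl mean. The mean was 19.1 ± 1.79 CPM in sgControl (SD, n = 3) and 14.1 ± 0.583 CPM in sgMef2d (SD, n = 2). The log2 ratio was thus -0.44 (95% interval -0.68 to -0.19, edgeR adjusted p 0.0350). The direction of Etv5 held in all 14 alternatives, but the call held in 9 of them: the adjusted p was 0.0922 without sgControl replicate 2, 0.0881 without sgControl replicate 3, 0.273 without sgMef2d replicate 1, 0.192 without sgMef2d replicate 2 and 0.0591 under DESeq2. Without sgControl replicate 1 it was 1.16e-04. The gene (ENSMUSG00000013089.15) lies on chromosome 16 of GRCm38, from 22381309 to 22439719 on the minus strand. Transcripts of other genes, above all those of the processed pseudogene Gm4798, share 24.5% of its 50-base words, so its reads could have been split or dropped in the authors' counting.

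Etv4 showed no such difference. It held 44.1, 44.0 and 41.9 CPM in the control and 43.6 and 44.6 CPM in the sgMef2d libraries. The groups overlapped, and the log2 ratio came to 0.025 (95% interval -0.13 to 0.18, edgeR adjusted p 0.872). The ratio of Etv5 to Etv4 counts was 0.393, 0.435 and 0.498 in the sgControl libraries and 0.313 and 0.324 in the sgMef2d libraries. This pair, too, was chosen with the values known, and its ratios restate that Etv5 fell and Etv4 did not pass.

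**Figure D3:**
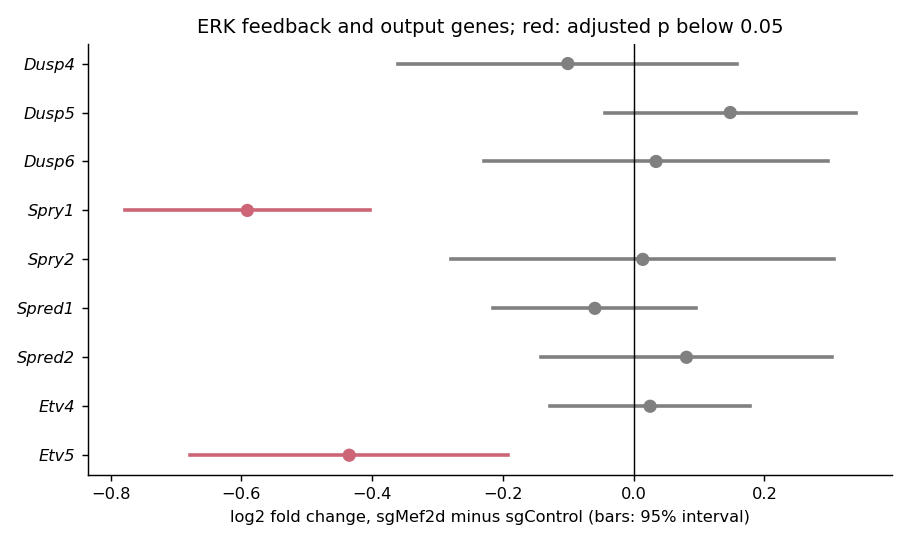
Log2 fold change of the 9 genes tested, sgMef2d minus sgControl, with the 95% interval of the quasi-likelihood fit as a bar. The intervals of Spry1 (-0.78 to -0.40) and Etv5 (-0.68 to -0.19) lie below 0, and those of the other 7 genes include it.

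Other phosphatases and regulators were read from a list of 19 genes, of which 17 were tested. Most are known to restrain the cascade, but the list also holds Ptpn11, known as an activator of it, and phosphatases such as Dusp8, Dusp10 and Dusp16 that act mainly on JNK and p38. Of the 17, 3 fell and 0 rose past the edgeR threshold, 17.6% of the list as against 7.95% of all genes tested, and at an unadjusted p below 0.05 there were 5 of 17, 2 of them higher, as against 23.2% of all genes. The median log2 ratio was -0.097. Lrig1, a membrane protein that marks ERBB receptors for degradation, held 143, 147 and 144 CPM in the control and 118 and 113 CPM in the sgMef2d libraries (log2 ratio -0.33, edgeR adjusted p 0.00522). Rasa1, which switches RAS off, had a log2 ratio of -0.28 (edgeR adjusted p 0.0135), and Dusp16, one of the phosphatases of JNK and p38, of -0.41 (edgeR adjusted p 0.0153). The count of genes past the threshold was 8, 4 of them higher, without sgControl replicate 1, where 29.4% of all genes passed. It was 1 without sgControl replicate 2, where 4.84% of all genes passed, and 0 without sgMef2d replicate 1 or 2, where 1.88% and 1.83% passed. Lrig1 lost its call without sgMef2d replicate 1 (0.0733) and replicate 2 (0.140). Without sgControl replicate 2 and sgMef2d replicates 1 and 2, the edgeR adjusted p was 0.0606, 0.123 and 0.240 for Rasa1 and 0.0550, 0.185 and 0.103 for Dusp16.

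Of 25 other output genes of ERK, all of them tested, 6 rose and 0 fell past the edgeR threshold, 24% of the list as against 3.67% of all genes tested that rose, and 21 of the 25 had a positive log2 ratio, as against 6326 of the 12483 genes tested, with a median of 0.23. In 13 of the 25, both sgMef2d libraries lay above all sgControl libraries, as against 20.6% of all genes tested. Ereg, which encodes the EGF receptor ligand epiregulin, held 26.8, 29.4 and 27.4 CPM in the control and 44.3 and 40.8 CPM in the sgMef2d libraries (log2 ratio 0.62, edgeR adjusted p 8.74e-04). Ier3, an immediate early gene tied to cell survival, held 148, 141 and 128 CPM in the control and 212 and 198 CPM in the sgMef2d libraries (log2 ratio 0.56, edgeR adjusted p 6.77e-04). Fosl1, which encodes the AP-1 subunit FRA1, held 60.7, 64.1 and 61.1 CPM in the control and 83.7 and 85.7 CPM in the sgMef2d libraries (log2 ratio 0.45, edgeR adjusted p 0.00125). The calls of Ereg, Ier3 and Fosl1 held in all 14 alternatives.

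Ier2 and Myc, a nuclear immediate early gene and the growth regulator, also rose, with log2 ratios of 0.50 (edgeR adjusted p 0.0199) and 0.30 (edgeR adjusted p 0.00885). Ier2 lost its call without sgControl replicate 2 (0.0564) and without sgMef2d replicate 1 (0.295), where its log2 ratio was 0.33, and Myc without sgMef2d replicate 1 (0.192) and replicate 2 (0.0902). Junb, another AP-1 subunit named after its values were seen, rose with a log2 ratio of 0.24 (edgeR adjusted p 0.0393). It lost its call in 6 of the 14 alternatives, among them without sgControl replicate 2 (0.0911) and replicate 3 (0.117), without sgMef2d replicate 1 (0.404) and replicate 2 (0.199), and with length and GC trends removed (0.136). The count over this list, all higher, was 12 without sgControl replicate 1, where 29.4% of all genes passed in either direction, 4 without sgControl replicate 2, where 4.84% passed, and 3 without sgMef2d replicate 1, where 1.88% passed.

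In the cascade itself, 4 of 26 genes passed the edgeR threshold, 15.4% of the list as against 7.95% of all genes tested, 2 higher and 2 lower, with a median log2 ratio of -0.029. Fgfr2, a receptor of FGF ligands in epithelia, fell from 75.9, 88.3 and 88.9 CPM in the sgControl libraries to 64.0 and 61.1 CPM in the sgMef2d libraries (log2 ratio -0.43, edgeR adjusted p 0.00750). Fgfr1 fell with a log2 ratio of -0.30 (edgeR adjusted p 0.0207), while Hras and the adaptor gene Grb2 rose, with log2 ratios of 0.27 (edgeR adjusted p 0.0258) and 0.22 (edgeR adjusted p 0.0417). Fgfr2 lost its call without sgMef2d replicate 1 (0.0751) and replicate 2 (0.129), and Fgfr1 without sgControl replicate 2 (0.0943) and sgMef2d replicates 1 and 2 (0.129 and 0.281). Without sgControl replicates 2 and 3 and sgMef2d replicates 1 and 2, the edgeR adjusted p was 0.116, 0.0635, 0.159 and 0.343 for Hras and 0.164, 0.0801, 0.273 and 0.388 for Grb2. Grb2 also lost its call under DESeq2 (0.0956), among other alternatives. The count for the cascade was 0 without sgMef2d replicate 1 or 2 (1.88% and 1.83% of all genes), 1 without sgControl replicate 2 (4.84%), 2 without sgControl replicate 3 (6.51%) and 9 without sgControl replicate 1, where 29.4% of all genes passed.

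Of 19 transcription factors of the ERK response, Mef2d among them, 2 passed the edgeR threshold, 10.5% of the list and thus close to the 7.95% of all genes tested, with a median log2 ratio of -0.047. Ets2, an ETS factor that ERK phosphorylates, held 120, 127 and 130 CPM in the control and 164 and 160 CPM in the sgMef2d libraries (log2 ratio 0.36, edgeR adjusted p 0.00356). Atxn1, whose product forms a complex with CIC, held 27.9, 24.7 and 27.0 CPM in the control and 19.9 and 21.7 CPM in the sgMef2d libraries (log2 ratio -0.36, edgeR adjusted p 0.0375). Ets2 lost its call without sgMef2d replicate 1 (0.0890) and replicate 2 (0.0649), and Atxn1 without sgControl replicate 3 (0.0790) and sgMef2d replicates 1 and 2 (0.324 and 0.176), under DESeq2 (0.0853) and with length and GC trends removed (0.140). The count was 10, 7 of them lower, without sgControl replicate 1, where 29.4% of all genes passed. It was 1 without sgControl replicate 3, where 6.51% of all genes passed, and 0 without sgMef2d replicate 1 or 2, where 1.88% and 1.83% passed, so that a count of 0 in 19 is near the background there.

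**Figure D4:**
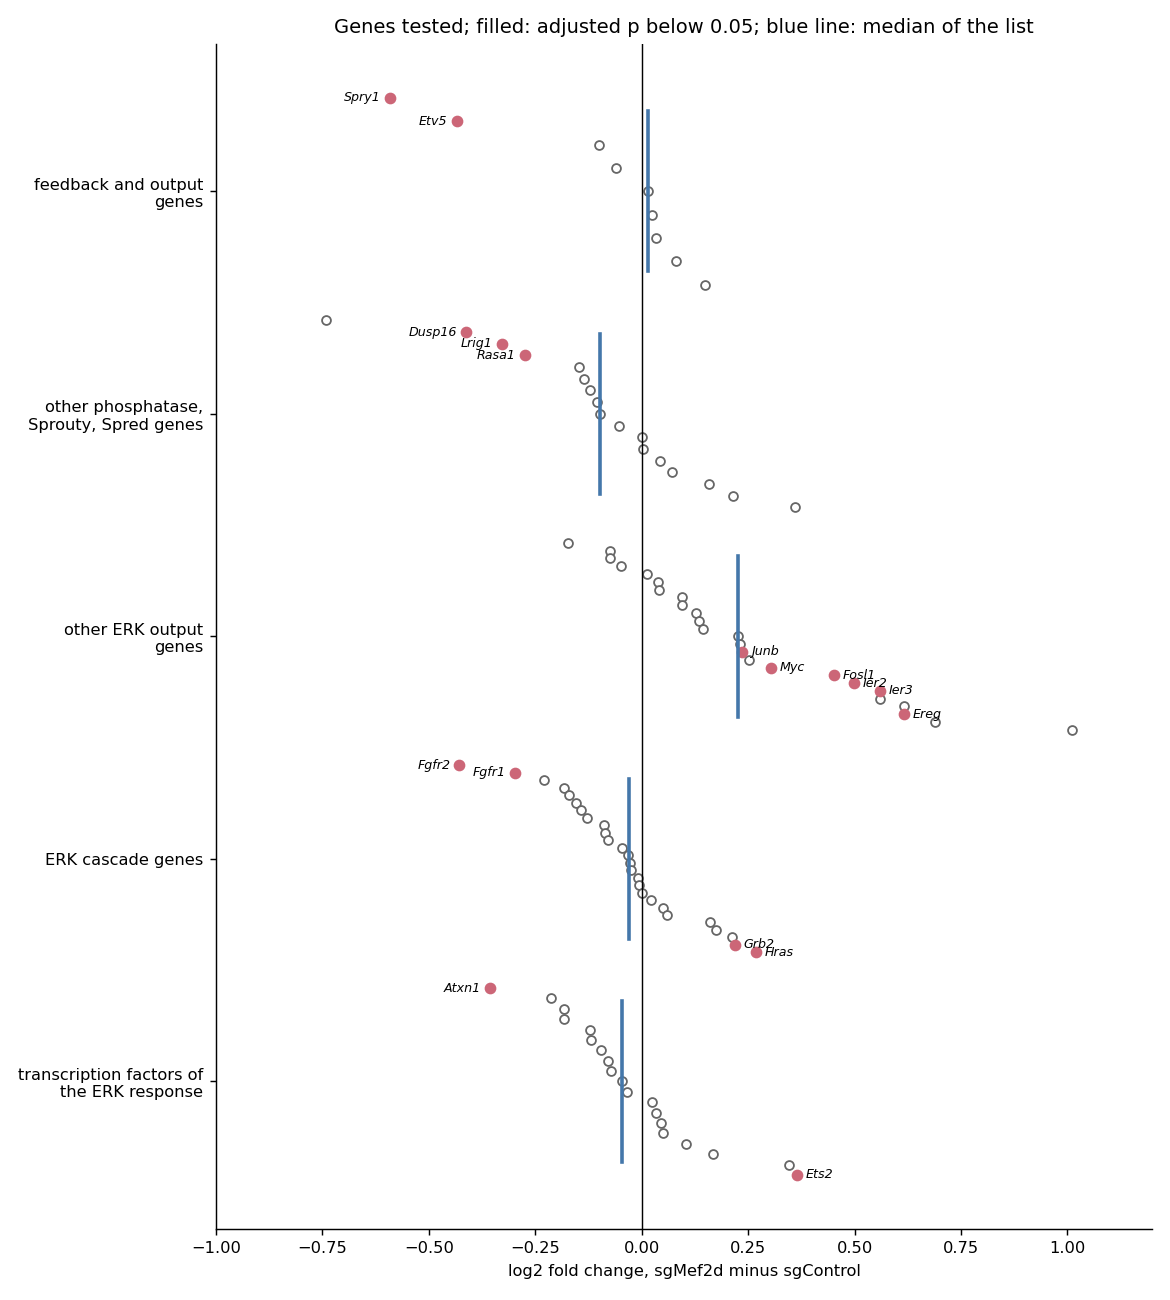
Log2 fold change, sgMef2d minus sgControl, of each gene tested in the 10-gene group and in the 4 other lists of the pathway. Filled points passed an adjusted p of 0.05, open points did not, and the blue line marks the median of a list, which is 0.014 for the feedback and output genes, 0.23 for the other output genes and between -0.097 and -0.029 for the remaining lists.

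Set beside the other output genes, of which 6 of 25 rose and 0 fell, 0 of the 9 feedback and output genes tested rose and 2 fell, where 3.67% of all genes rose and 4.28% fell. Among 9 genes, a count of 0 that rose is near that background. The difference between these lists was not tested. RNA levels do not show the phosphorylation of ERK or the amount of the proteins.

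**Figure D5:**
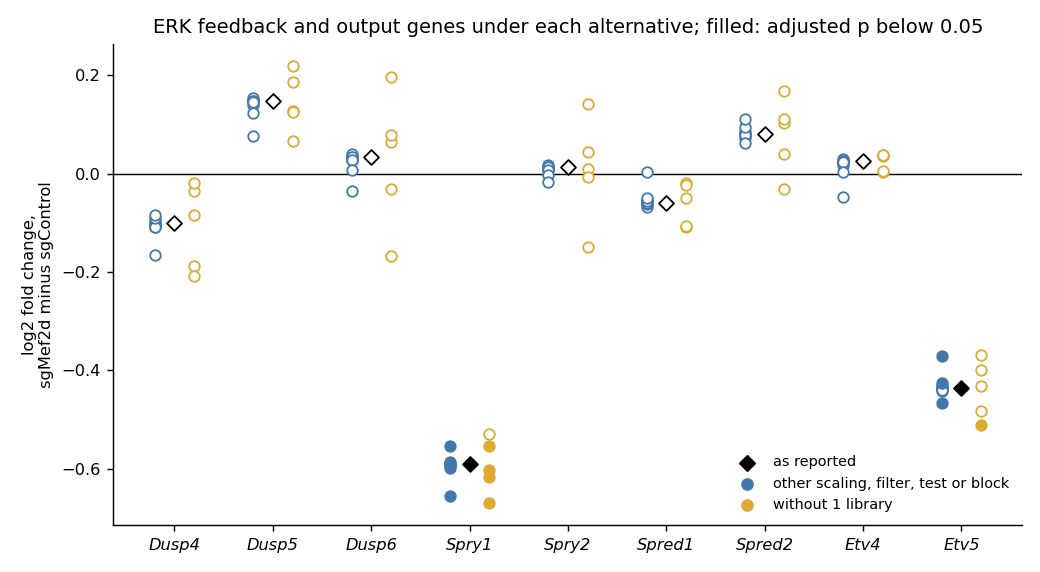
Log2 fold change, sgMef2d minus sgControl, of the 9 genes tested, as reported (diamond), under other scalings, filters, tests or the replicate block (blue) and with 1 library left out (yellow), filled where the adjusted p was below 0.05. Spry1 stays between -0.67 and -0.53 and Etv5 between -0.51 and -0.37, while Dusp6, Spry2, Spred1, Spred2 and Etv4 have points on both sides of 0.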

How the data were processed

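RNA of 3 sgControl and 2 sgMef2d libraries of EpH4 cells was poly(A)-selected and sequenced. Reads were aligned by the authors to GRCm38 with STAR2, with quality checks by FASTQC and RSeQC. The submitters' processing notes also name Subread and CASAVA. The deposited table holds whole-number counts for each gene. All 12934 identifiers matched GENCODE M21, 12811 with the same version, while the methods give version 22. Each listed gene reached at least 11 counts in a library. Columns left unused numbered 0.

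Here TMM factors (0.996 to 1.00) were computed with edgeR 4.0.16 under R 4.3.3, and its bias-adjusted quasi-likelihood test was run on 12483 genes kept by the default filter, with Benjamini-Hochberg adjustment and a threshold of 0.05. Intervals rest on a standard error taken as the log2 fold change over the root of F. The biological coefficient of variation was 0.0607. TPM used the union of annotated exons. No replicate block was used. The script was tested on simulated counts. With 196 genes changed by 0.5 on the log2 scale, 144 were recovered, beside 13 false calls. With no gene changed, there were 3 false calls.

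The genes and lists were chosen with earlier results of these data known. Named were the 10 genes, Mef2d, and of each list at most the 5 genes past the threshold with the smallest p. Junb was named outside this rule, after its values were seen, and Ptpn11, Dusp8 and Dusp10 for their known roles. Dusp1, Ccnd1, Epha2, Phlda1 and Cic were also followed after their values were seen, and none of them passed the threshold in the reported test. The lists hold other phosphatases and regulators, other outputs, the cascade and transcription factors. Values of some list genes are not reported here. Alternatives were other normalizations, no filter, the legacy test, DESeq2 1.42.0, limma-voom (limma 3.58.1), a replicate block, removal of length and GC trends (loess, span 0.3) and leaving out each library. Promoter sequences came from RefSeq (GRCm38.p6) and were not used here for Dusp4, Spry4 and Etv4.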

Additional observations from a re-analysis of the deposited data

How the results depend on the processing

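The count of the 10 genes past the threshold was 2 as reported and 1 under DESeq2, which called 793 genes or 6.13% of all genes, and between 0 and 2 when a library was left out. Leaving out a library gave between 234 and 3639 genes over all genes tested, between 0 and 8 of the other phosphatases and regulators, between 3 and 12 of the other output genes, between 0 and 9 of the cascade genes and between 0 and 10 of the transcription factors, the last count being 1 under DESeq2 and 1 with length and GC trends removed. With 1 sgMef2d library left, the test rests on the spread of the sgControl libraries alone and the lone sgMef2d library is assumed to vary like them.

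Direction turned for 5 of the 10 genes, none of them past the threshold under any setting. With the replicate block it was -0.034 for Dusp6 and -0.0021 for Spry2 on the log2 scale. With length and GC trends removed it was -0.017 for Spry2, 0.0041 for Spred1 and -0.047 for Etv4. With 1 library left out, Dusp6 ran from -0.17 to 0.20, Spry2 from -0.15 to 0.14 and Spred2 from -0.031 to 0.17. Dusp4 ran from -0.21 to -0.018 and Dusp5 from 0.067 to 0.22, with no change of direction. The causes were not tested. The block gave 1254 genes and kept the calls of Spry1 and Etv5, while Grb2 and Junb lost theirs (adjusted p 0.0672 and 0.113). Under DESeq2 and with length and GC trends removed, the adjusted p was 0.0956 and 0.0556 for Grb2 and 0.0853 and 0.140 for Atxn1. The labels do not say whether equal replicate numbers pair the libraries. Correlations of deviations were 0.050 and 0.017 for equal numbers over 8950 genes. The 2 sgMef2d libraries deviate from their mean by equal amounts in opposite directions, so unequal numbers gave -0.050 and -0.017 by construction. These correlations therefore cannot decide whether the libraries were paired. Spry4 could be fitted only without the filter and under DESeq2, with log2 ratios of -0.27 and -0.28 and adjusted p values of 0.863 and 0.941. Levels per length by the longest transcript placed 5 of the 10 genes at or above the median. Counts ran from 118 to 1572 per library over the 9 genes, lowest for Spry2, and counting error is part of the spread between libraries for Spry2, Dusp4 and Etv5. Spry4 is limited by its counts.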
